A study of Homo sapiens with 24 samples.

Results

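The respiratory chain genes NDUFS5, SDHB, SDHC, UQCRH, ATP5F1 and COX20, all encoded in the nucleus on chromosome 1, were followed through 8 groups of HEK293 cells, an established human embryonic kidney line. Members were chosen by name, as nuclear genes of complexes I to V on this chromosome, and 5 of the 6 had a row among the 11579 rows of the expression table. COX20 was not analysed here. Chromosome 1 was used because row labels on chromosomes 2 to 22 were doubtful. In GENCODE v44, 50.7% of coding genes of chromosome 1 and 2.39% of its other genes had a row, whereas on chromosomes 2 to 22 the shares were 19.3% and 16.4%, hardly different from each other. Chromosome X, with 43.1% and 2.46%, resembled chromosome 1.

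There were 4 transfection states, namely no transfection and transient transfection with an empty vector, with EVI1-WT and with EVI1-AQA. Each state was sampled without treatment and after 8 h in 150 μM H2O2, in 3 libraries per group. EVI1 is a zinc finger transcription factor, and EVI1-AQA carries alanine in place of both serines of a carboxy-terminal SQS motif. EVI1 was driven by the strong viral promoter of a pCMV plasmid, so its level is not that of an endogenous gene, and the EVI1 transcript itself was not analysed here. The growth protocol in the labels also lists luciferase reporter plasmids, and whether these libraries contained them is not given. The libraries read the 3′ ends of polyadenylated RNA in reads of 75 bases. The replicate number is also the batch number, and the labels do not say whether batches were separate cultures, so p-values measure the spread between these samples, which may be technical.

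The deposited values were log2 values whose mean over each batch of 8 libraries was 0 for every row, with a largest departure of 4.5e-06. A value therefore tells how a library stood against the other libraries of its batch. It gives no absolute level, genes cannot be ordered by abundance, the depth is unknown, and in a transiently transfected culture a large change in some cells and a small change in all cells cannot be told apart. Correlations over all rows between replicates of a group ran from -0.0639 to 0.538. The row labelled CACNB3, a label of a chromosome on which labels are doubtful, lay between 2.62 and 4.91 in 10 of the 12 libraries labelled EVI1-WT or EVI1-AQA and between -4.49 and -1.64 in 11 of the 12 labelled untransfected or empty vector. The other 3 libraries, all exposed to H2O2, lay on the side opposite to their labels, at 4.36 in the library labelled empty vector of batch 2, -4.38 in that labelled EVI1-WT of batch 2 and -2.60 in that labelled EVI1-AQA of batch 1. Groups follow the labels throughout, and values without these 3 libraries are given beside some of the results that use them. Values within batches, pairs of libraries and correlations are not given without them. Leaving them out changed no call for the 5 genes in limma without the batch in the fit. The 1 gene that passed in any comparison, NDUFS5, then had an adjusted p of 0.0469. With all libraries and the batch in the fit NDUFS5 did not pass, as given with that comparison.

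The respiratory chain sits in the inner mitochondrial membrane, where complexes I and II pass electrons from NADH and succinate to ubiquinone, complex III hands them to cytochrome c, complex IV to oxygen, and complex V uses the proton gradient to make ATP. Most subunits are nuclear genes whose products are imported, and the remainder are encoded by mitochondrial DNA. Complexes I and III are known sites of superoxide formation, from which H2O2 arises inside the cell, and iron-sulfur enzymes of the chain are known to be sensitive to oxidants. Promoters of nuclear respiratory genes are known for binding sites of NRF1, of the ETS factor GABPA, of YY1 and of Sp1.

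NDUFS5 encodes an accessory subunit of complex I and lies on the plus strand at chr1:39026318-39034636 (GRCh38, GENCODE v44). SDHB, the iron-sulfur subunit of complex II, lies on the minus strand at chr1:17018664-17054032. SDHC, a membrane anchor of complex II, lies on the plus strand at chr1:161314381-161363206. UQCRH, the hinge subunit of complex III, lies on the plus strand at chr1:46303698-46316776. ATP5F1, named ATP5PB in GENCODE v44, encodes subunit b of the peripheral stalk of complex V and lies on the plus strand at chr1:111448864-111462773.

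The reads came from transcript ends, so each canonical transcript's last 400 bases were cut into windows of 75 bases and looked up in GRCh38. For SDHC, 195 of 326 windows (59.8%) also occurred exactly inside the gene RPA1, so reads from this stretch could have been assigned to either place. For UQCRH, 15 of 326 windows (4.6%) also occurred in the intronless copy UQCRHL, and for NDUFS5 3 of 326 windows (0.92%) occurred in NDUFS5P3. SDHB and ATP5F1 had no window elsewhere. Only exact matches were counted, so these shares leave out places that differ from a window by a few bases. How reads with several matches were treated is not given in the sources used here.

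Promoter sequences were available for 3 of the 5 genes, SDHB, UQCRH and ATP5F1, and are shown for all 3. A link between these sequences and the expression values was not tested. Each window runs from 250 bases before to 50 bases after the RefSeq start on GRCh38.p14 and is written on the gene's strand. For SDHB and UQCRH this start is also the start of the gene in GENCODE v44. For ATP5F1 it lies downstream of the GENCODE start, so the whole window is inside the gene as GENCODE places it. Capitals mark matches on either strand to CCGGAAG (the core of ETS sites), AAGATGGCG (YY1), CCAAT and CTCGCGAG, a palindrome added after the sequences had been read. CGCANGCG (the core of NRF1 sites) and GGGGCGGGG (Sp1) were searched as well and had no exact match in these windows. Only exact matches were sought for every motif, so a window without a match may still hold a related site.
SDHB, chr1:17053983-17054282, minus strand: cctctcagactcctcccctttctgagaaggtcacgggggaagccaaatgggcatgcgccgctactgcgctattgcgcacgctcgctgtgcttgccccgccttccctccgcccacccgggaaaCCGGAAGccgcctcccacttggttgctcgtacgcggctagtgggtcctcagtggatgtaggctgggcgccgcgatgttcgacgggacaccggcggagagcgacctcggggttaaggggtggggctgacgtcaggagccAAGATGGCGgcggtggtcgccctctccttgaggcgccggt
UQCRH, chr1:46303448-46303747, plus strand: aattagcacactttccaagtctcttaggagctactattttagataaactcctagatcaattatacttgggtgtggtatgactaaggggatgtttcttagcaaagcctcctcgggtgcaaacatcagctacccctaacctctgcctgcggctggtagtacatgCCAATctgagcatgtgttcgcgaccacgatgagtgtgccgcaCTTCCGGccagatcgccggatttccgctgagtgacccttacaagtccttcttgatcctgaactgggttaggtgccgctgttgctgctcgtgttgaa
ATP5F1, chr1:111449214-111449513, plus strand: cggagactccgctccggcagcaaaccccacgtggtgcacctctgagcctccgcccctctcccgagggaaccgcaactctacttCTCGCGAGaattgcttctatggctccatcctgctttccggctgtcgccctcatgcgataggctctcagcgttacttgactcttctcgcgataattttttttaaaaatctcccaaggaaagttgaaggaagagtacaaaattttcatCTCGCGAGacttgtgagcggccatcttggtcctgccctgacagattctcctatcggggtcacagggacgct

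The SDHB window held CCGGAAG at bases 123 to 129 and AAGATGGCG at bases 261 to 269, the latter within the first transcribed bases. The UQCRH window held the reverse complement of CCGGAAG at bases 205 to 211 and CCAAT at bases 163 to 167. The ATP5F1 window held neither, but it held the palindrome at bases 84 to 91 and again at bases 230 to 237. No 2 motifs overlapped. Of 35116 promoter windows of the same length, 10.3% held CCGGAAG, 1.75% AAGATGGCG, 34.6% CCAAT and 1.02% CTCGCGAG, while 3527 of the 35116 windows held CGCANGCG and 15.7% GGGGCGGGG. A match describes these letters only and no binding was measured.

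Transfected cells, taken as the mean of empty vector, EVI1-WT and EVI1-AQA over both treatments, were compared with untransfected cells. This comparison does not separate transfection from EVI1, which the EVI1-WT and EVI1-AQA cells also received. The direct comparison of empty vector with untransfected cells is given further below. NDUFS5 was higher by 0.30 on the log2 scale (SE 0.098, 1.23-fold, limma adjusted p = 0.0343), and it was the 1 gene of 5 that passed the adjusted threshold of 0.05. Over all 11579 rows 21.4% passed in this comparison, and over rows labelled with coding genes of chromosome 1 23.3% did, so 1 of 5 genes is close to the background. At an unadjusted p under 0.05 the numbers were 4 of 5 genes and 35.6% of rows. With the batch as a replicate block the background was 16.1% and NDUFS5 did not pass (adjusted p = 0.0581). The SEs and 95% intervals given throughout are from the fit without the block. They are somewhat too narrow, because the values were centred within batches. SDHB, SDHC and UQCRH differed by 0.33, 0.19 and 0.18, with 95% intervals above 0 but adjusted p-values of 0.0762, 0.0838 and 0.0594, and ATP5F1 differed by -0.012 (adjusted p = 0.928). The median difference of the 5 genes was 0.19, against 0.0071 for all rows. None of the 5 genes separated the 18 transfected from the 6 untransfected libraries without overlap, as 0.389% of rows did. UQCRH was the 1 gene of 5 whose difference had the same direction in all 3 batches, upwards, whereas 41.5% of rows kept 1 direction and 21% were higher in all 3.

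**Figure D1:**
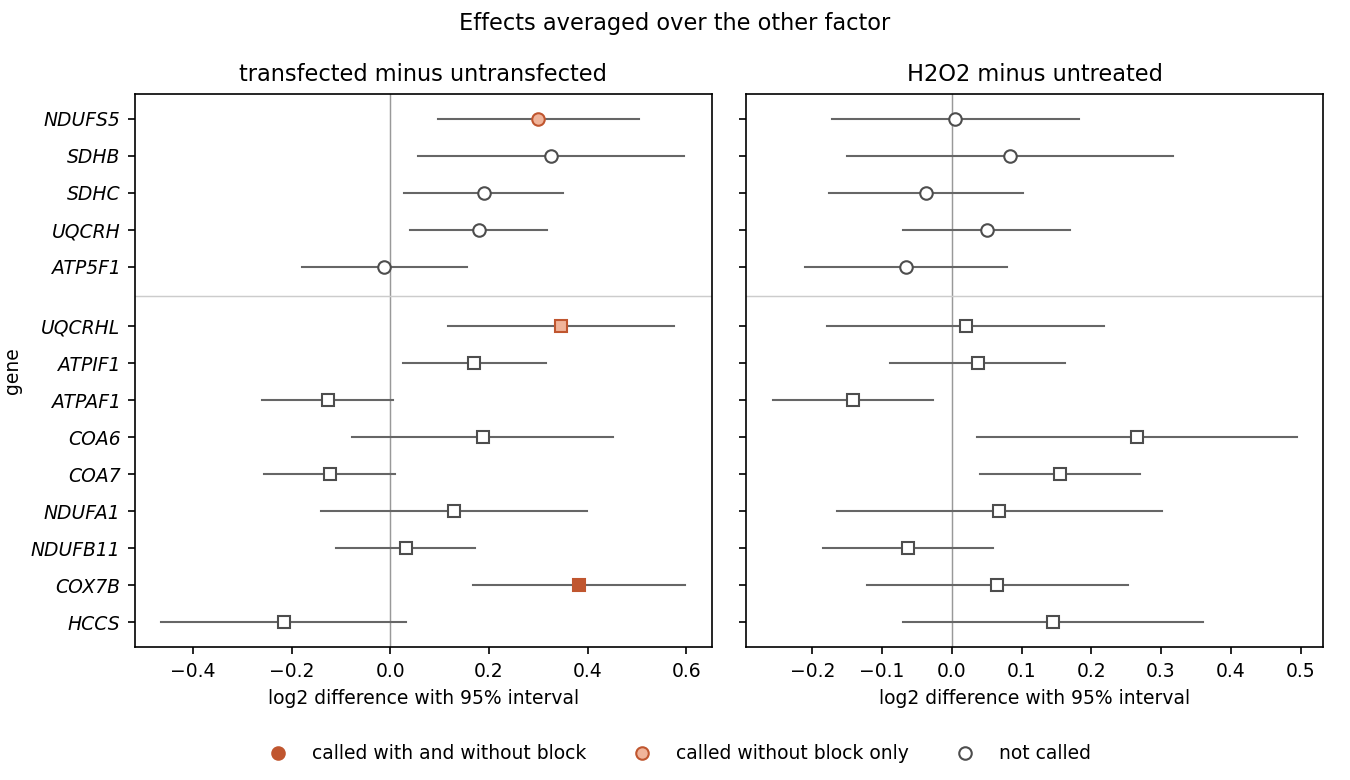
Log2 differences with 95% intervals for transfected minus untransfected cells (left, averaged over treatments) and H2O2 minus untreated (right, averaged over transfection states), for the 5 genes (circles) and 9 further respiratory genes on chromosomes 1 and X (squares). Filled symbols passed an adjusted p of 0.05 with and without the replicate block and pale symbols only without it. On the left 4 of the 5 genes lie between 0.18 and 0.33 and ATP5F1 lies at -0.012, while on the right all 5 intervals span 0.

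For NDUFS5, the untreated values in batches 1, 2 and 3 were 0.16, -0.70 and -0.28 in untransfected cells, 0.25, 0.32 and 0.0034 with empty vector, 0.16, -0.012 and -0.091 with EVI1-WT, and 0.026, 0.056 and 0.086 with EVI1-AQA. After H2O2 they were -0.13, -0.17 and -0.23 in untransfected cells, -0.21, 0.22 and 0.14 with empty vector, -0.089, 0.19 and 0.18 with EVI1-WT, and -0.17, 0.11 and 0.19 with EVI1-AQA. Untransfected libraries of batches 2 and 3 lay below every transfected library of their own batch under both treatments, whereas those of batch 1 lay among the transfected ones, so the groups overlapped. Ordered by group mean, NDUFS5 ran from -0.27 ± 0.43 (SD, n = 3) in untreated untransfected cells through -0.18 ± 0.049 in untransfected cells with H2O2 to 0.19 ± 0.16 in untreated empty vector cells, with the other 5 groups between 0.019 and 0.092. Those 5 groups did not differ beyond their spread, and the limma F-test over all 8 groups gave an adjusted p of 0.325.

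Within batches 1, 2 and 3 the NDUFS5 difference between transfected and untransfected cells was -0.022, 0.58 and 0.34. The rise was therefore carried by batches 2 and 3. Leaving out the untreated untransfected library of batch 2, the lowest of the 24, brought it to 0.19 (adjusted p = 0.161). The call was also lost without the untreated untransfected library of batch 3 (adjusted p = 0.0607) or without the untransfected library exposed to H2O2 of batch 1 (0.0515), batch 2 (0.0713) or batch 3 (0.0744), and every other omission of a single library kept it.

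For SDHB, the untreated values in batches 1, 2 and 3 were 0.038, -0.24 and -1.12 in untransfected cells, -0.28, 0.065 and -0.088 with empty vector, 0.17, -0.27 and 0.53 with EVI1-WT, and 0.12, 0.21 and 0.36 with EVI1-AQA. After H2O2 they were 0.062, 0.046 and -0.25 in untransfected cells, -0.071, 0.24 and 0.050 with empty vector, 0.13, 0.050 and 0.36 with EVI1-WT, and -0.17, -0.10 and 0.16 with EVI1-AQA. A single library, untreated untransfected cells of batch 3, lay far below the others, which all fell between -0.28 and 0.53. The within-batch transfection difference of SDHB was -0.067, 0.13 and 0.91, and without that library the difference over all batches was 0.16 (adjusted p = 0.321) in place of 0.33. Without the untreated untransfected library of batch 1 it was 0.45 and passed (adjusted p = 0.0159), as it did without the untreated EVI1-WT library of batch 2 (0.0442). The group means ran from -0.44 ± 0.60 in untreated untransfected cells to 0.23 ± 0.12 in untreated EVI1-AQA cells. Neighbours in this order differed by less than their spread, and the F-test over the 8 groups gave an adjusted p of 0.258.

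SDHC, the partner of SDHB in complex II, lay between -0.39 and 0.082 in the 6 untransfected libraries, with a median of -0.12. In the 18 transfected libraries it lay between -0.23 and 0.38, with a median of 0.013. The lowest SDHC value came from the same library as that of SDHB, and the groups overlapped. The within-batch differences were -0.030, 0.30 and 0.30, again near 0 in batch 1. SDHC passed without the untreated untransfected library of batch 1 (adjusted p = 0.0241). The group means ran from -0.17 ± 0.24 in untreated untransfected cells to 0.13 ± 0.059 in untreated EVI1-AQA cells (F-test adjusted p = 0.357).

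For UQCRH, the untreated values in batches 1, 2 and 3 were 0.030, -0.40 and -0.18 in untransfected cells, 0.012, 0.032 and -0.16 with empty vector, 0.076, -0.024 and 0.033 with EVI1-WT, and 0.098, 0.086 and 0.095 with EVI1-AQA. After H2O2 they were -0.063, -0.021 and -0.17 in untransfected cells, -0.047, 0.17 and 0.061 with empty vector, 0.035, 0.15 and 0.23 with EVI1-WT, and -0.14, 0.0081 and 0.086 with EVI1-AQA. As for NDUFS5, the untreated untransfected library of batch 2 was the lowest of all, and in batches 2 and 3 the untransfected library was the lowest of its treatment. The within-batch differences were 0.022, 0.28 and 0.23. UQCRH passed the threshold without the untreated untransfected library of batch 1 (adjusted p = 0.0167) or the EVI1-AQA library with H2O2 of batch 1 (0.0439). The group means ran from -0.18 ± 0.22 in untreated untransfected cells to 0.14 ± 0.098 in EVI1-WT cells with H2O2 (F-test adjusted p = 0.312).

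ATP5F1 was the exception among the 5. It lay between -0.22 and 0.26 in the untransfected libraries, with a median of -0.0016, and between -0.24 and 0.24 in the transfected ones, with a median of 0.014. Both ranges were nearly the same, and the within-batch differences were 0.13, -0.15 and -0.0098. The 95% interval of its transfection difference ran from -0.18 to 0.15 on the log2 scale. The library that was lowest for NDUFS5 and UQCRH was the highest of all for ATP5F1, at 0.26.

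**Figure D2:**
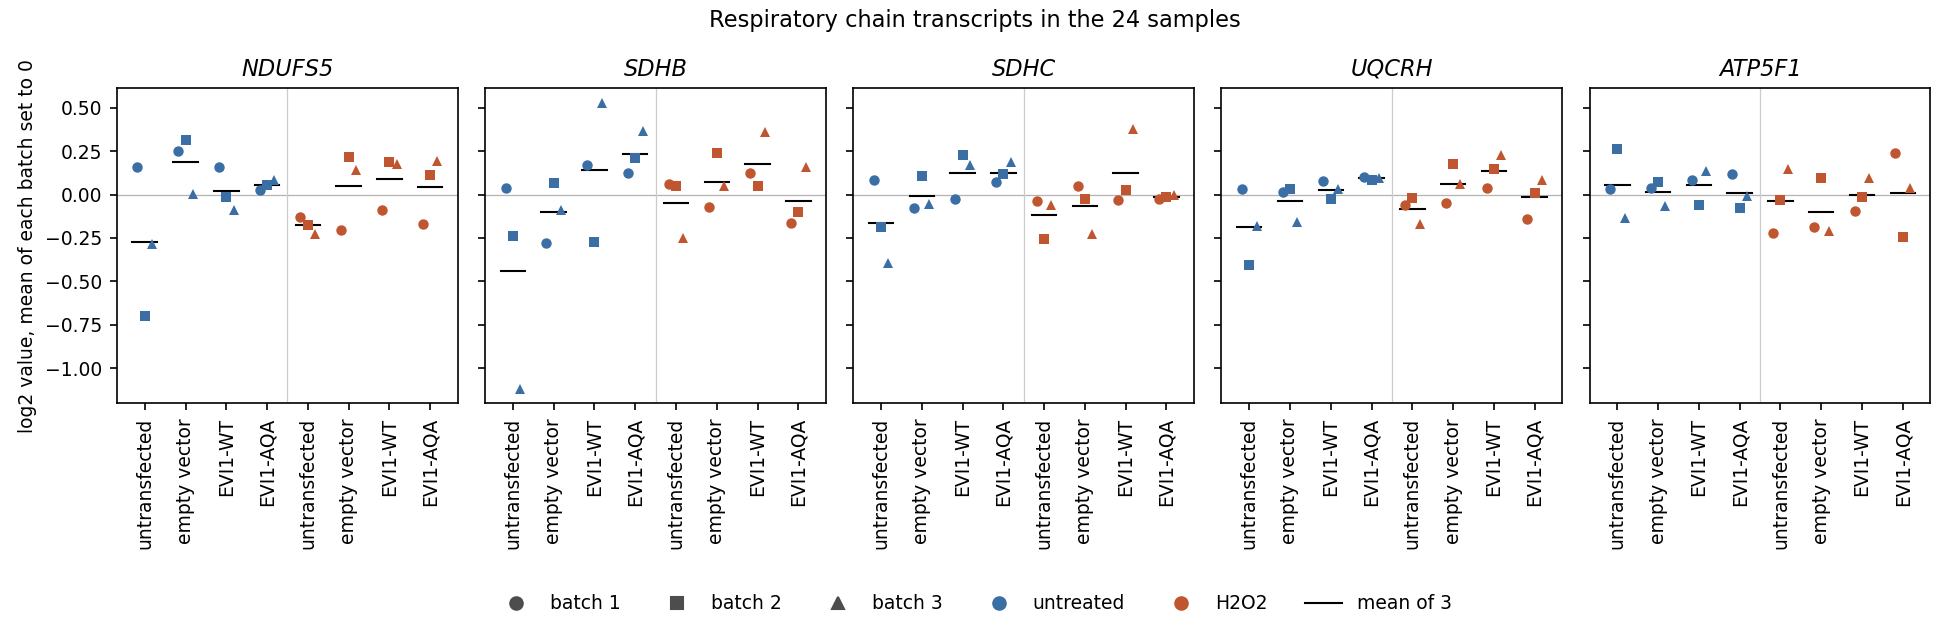
Log2 values, with the mean of each batch set to 0, of the 5 genes in the 24 libraries, by transfection state, with untreated libraries on the left and in blue and H2O2 libraries on the right and in orange of each panel. Symbols mark batches and bars mark means of 3 libraries. The lowest libraries of NDUFS5, SDHB, SDHC and UQCRH, at -0.70, -1.12, -0.39 and -0.40, are untreated untransfected ones of batches 2 or 3.

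**Figure D3:**
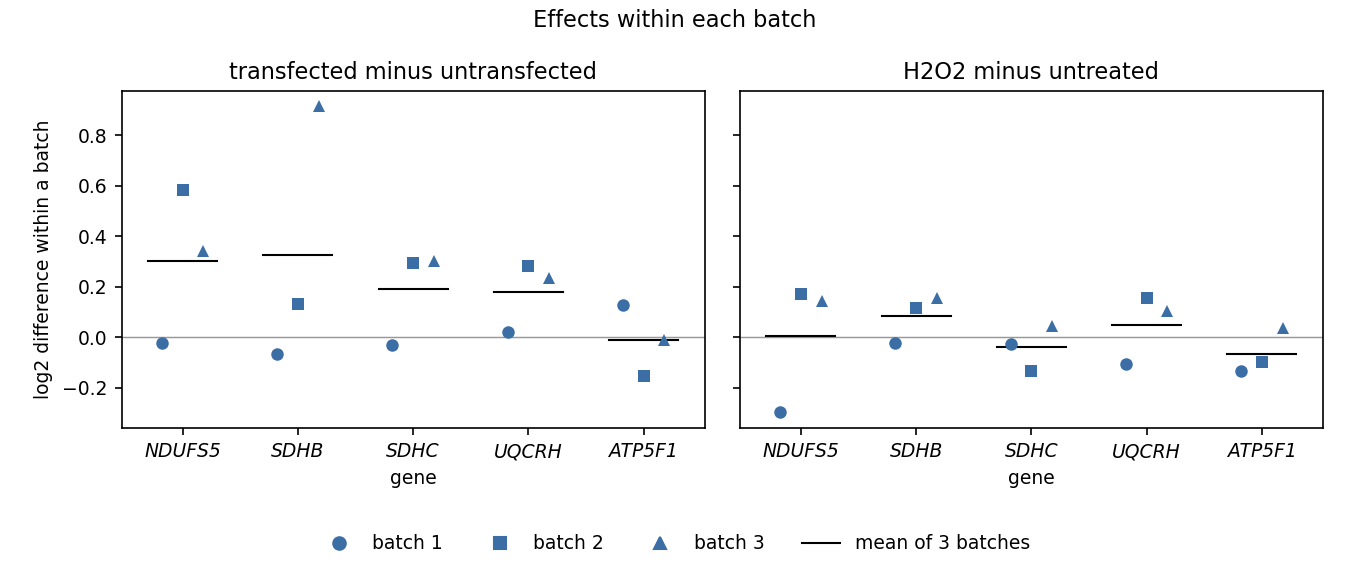
Log2 difference within each batch between transfected and untransfected cells (left) and between H2O2 and untreated cells (right) for the 5 genes, with the mean of 3 batches as a bar. On the left, batch 1 lies between -0.067 and 0.022 for the 4 genes other than ATP5F1, while batches 2 and 3 lie between 0.13 and 0.91.

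Separating the treatments, the mean transfection difference was larger in untreated cells than after H2O2 for the 4 genes with positive averages. For SDHB it was 0.53 in untreated cells and 0.12 after H2O2, and for NDUFS5 0.36 and 0.24. SDHC gave 0.25 and 0.13, and UQCRH 0.21 and 0.15. Single batches did not always keep this order. In batch 3 NDUFS5 had 0.28 untreated and 0.40 after H2O2, and UQCRH 0.17 and 0.30. In batch 1 SDHC had -0.092 and 0.032. The remaining batches of these genes kept the order, as did every batch of SDHB, whose untreated value in batch 3 was 1.39 and includes the library at -1.12. The means are over 3 batches, whose SD was 0.42 for untreated NDUFS5 and 0.75 for untreated SDHB. The test of whether the H2O2 effect differed between the transfection states, given with the H2O2 comparisons, passed for none of the 5 genes.

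By construct, the mean difference of NDUFS5 from untransfected cells over both treatments was 0.34 for empty vector, 0.28 for EVI1-WT and 0.27 for EVI1-AQA. SDHB gave 0.23, 0.40 and 0.34. SDHC gave 0.10, 0.27 and 0.20, and UQCRH 0.15, 0.22 and 0.17. Empty vector had positive mean differences in all 4 genes, as had both EVI1 constructs, and the 3 sets of values share their untransfected libraries. Without the 3 libraries on the side opposite to their labels in the CACNB3 row, these 12 means remained positive, at 0.093 to 0.30 for empty vector, 0.22 to 0.44 for EVI1-WT and 0.20 to 0.37 for EVI1-AQA. In the direct test of empty vector against untransfected cells, 0 of 5 genes passed in untreated cells (0.147% of rows, 14.7% at an unadjusted p under 0.05) and 0 of 5 after H2O2 (0% of rows, 11% at an unadjusted p under 0.05). In untreated cells NDUFS5 alone had an unadjusted p under 0.05 (difference 0.46, SE 0.17, limma adjusted p = 0.225).

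Whether EVI1 itself or the loss of the serines moved these genes was addressed by comparing EVI1-WT and EVI1-AQA with empty vector and with each other. In limma, 0 of 5 genes passed in any of these 6 comparisons, and 0 had an unadjusted p under 0.05. Few rows passed at all, 0% for EVI1-WT against empty vector in untreated cells (7.09% unadjusted) and 0% after H2O2 (4.67% unadjusted), 0.0864% and 0.0173% for EVI1-AQA against empty vector (14.9% and 9.15% unadjusted), and 0% and 0.0173% for EVI1-AQA against EVI1-WT (4.77% and 10.5% unadjusted). The widest difference was SDHB in untreated EVI1-AQA against empty vector cells, at 0.33 with a 95% interval from -0.13 to 0.80. UQCRH in EVI1-AQA against EVI1-WT cells after H2O2 gave -0.15 with an interval from -0.39 to 0.087, or -0.086 without the 3 libraries. NDUFS5 gave -0.17 for EVI1-WT and -0.13 for EVI1-AQA against empty vector in untreated cells, with intervals from -0.52 to 0.18 and from -0.49 to 0.22. Without the 3 libraries, the comparison of EVI1-WT with empty vector after H2O2 had 4 rows called in place of 0, and 852 in place of 541 at an unadjusted p under 0.05. The 5 genes then lay between 0.078 and 0.26 in it and none passed. For EVI1-AQA against empty vector after H2O2, 2 of 5 genes lay above 0 with all libraries (median -0.0067, 50.3% of rows above 0). Without the 3 libraries 5 of 5 did (median 0.083, 48.8% of rows), and none passed.

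H2O2 against untreated cells, averaged over the 4 transfection states, changed none of the 5 genes past the threshold. In limma 0 of 5 passed, while 16.5% of all rows passed, 18.5% of those labelled with coding genes of chromosome 1, and 12.3% of all rows with the replicate block. At an unadjusted p under 0.05 the numbers were 0 of 5 genes and 31.1% of rows. NDUFS5 differed by 0.0052 (95% interval -0.17 to 0.18) and SDHB by 0.083 (-0.15 to 0.32). SDHC differed by -0.037 (-0.18 to 0.10), UQCRH by 0.050 (-0.070 to 0.17) and ATP5F1 by -0.065 (-0.21 to 0.079). The intervals leave room for a change of up to 0.32 for SDHB and of up to 0.21 in size for the other 4. The median difference of the 5 genes was 0.0052, against 0.0016 for all rows. Without the 3 libraries opposite to their labels in the CACNB3 row, the median of the 5 genes was -0.00054. The SDHB value depended on single untreated libraries, being -0.0016 without the untransfected one of batch 3, 0.14 without the untransfected one of batch 1, 0.032 without the EVI1-WT one of batch 2 and 0.13 without the EVI1-WT one of batch 3. NDUFS5, whose value was near 0, lay below 0 in 10 of the 24 omissions of a library.

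The directions within batches were mixed, and 0 of 5 genes kept 1 direction in all 3 batches, as 46.5% of rows did. None of the 5 separated the 12 H2O2 from the 12 untreated libraries, which 0.112% of rows did. For NDUFS5 the H2O2 difference was -0.30, 0.17 and 0.14 in batches 1, 2 and 3, for UQCRH -0.11, 0.16 and 0.10, and for SDHB -0.024, 0.12 and 0.16. These 3 genes shared a negative value in batch 1 and positive values in batches 2 and 3. SDHC gave -0.025, -0.13 and 0.045, and ATP5F1 -0.13, -0.098 and 0.036. Over the 12 pairs of an untreated and an exposed library of the same state and batch, H2O2 was higher in 7 pairs for NDUFS5, 7 for SDHB, 3 for SDHC, 6 for UQCRH and 5 for ATP5F1. The exact sign-flip test over these pairs, two-sided, gave adjusted p-values between 0.427 and 0.974, with 0.00049 the smallest p it can give. It treats the 12 pairs as independent, whereas pairs of the same batch may share a response, so its p-values may be too small.

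Within single states, 0 of 5 genes passed in untransfected cells (0.389% of rows), with empty vector (2% of rows), with EVI1-WT (0.475% of rows) or with EVI1-AQA (2.02% of rows). None had an unadjusted p under 0.05 in limma, which 15.4%, 17.5%, 14.7% and 17.7% of rows had in these states. SDHB had the widest span, from 0.39 in untransfected cells (95% interval -0.075 to 0.86) through 0.17 with empty vector and 0.036 with EVI1-WT to -0.27 with EVI1-AQA (-0.73 to 0.20). In EVI1-AQA cells SDHB, SDHC and UQCRH were below the untreated library in every batch, with means of -0.27, -0.14 and -0.11, while 36.6% of all rows kept 1 direction in every batch of this state and 17.7% were lower. Without the EVI1-AQA library of batch 1 that lay opposite to its label in the CACNB3 row, the means were -0.20, -0.13 and -0.046. Without the other 2 such libraries SDHB gave 0.090 with empty vector and 0.10 with EVI1-WT. The test of whether the H2O2 effect differed between the 4 states passed for 0 of 5 genes and for 0.259% of rows, with an adjusted p of 0.686 for SDHB and of 0.834 to 0.987 for the other 4. None of the 5 had an unadjusted p under 0.05 in it, against 11.5% of rows. The F-test over the 8 groups also passed for 0 of 5 genes, against 18.4% of rows, and at an unadjusted p under 0.05 the numbers were 0 of 5 genes and 36.7% of rows.

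**Figure D4:**
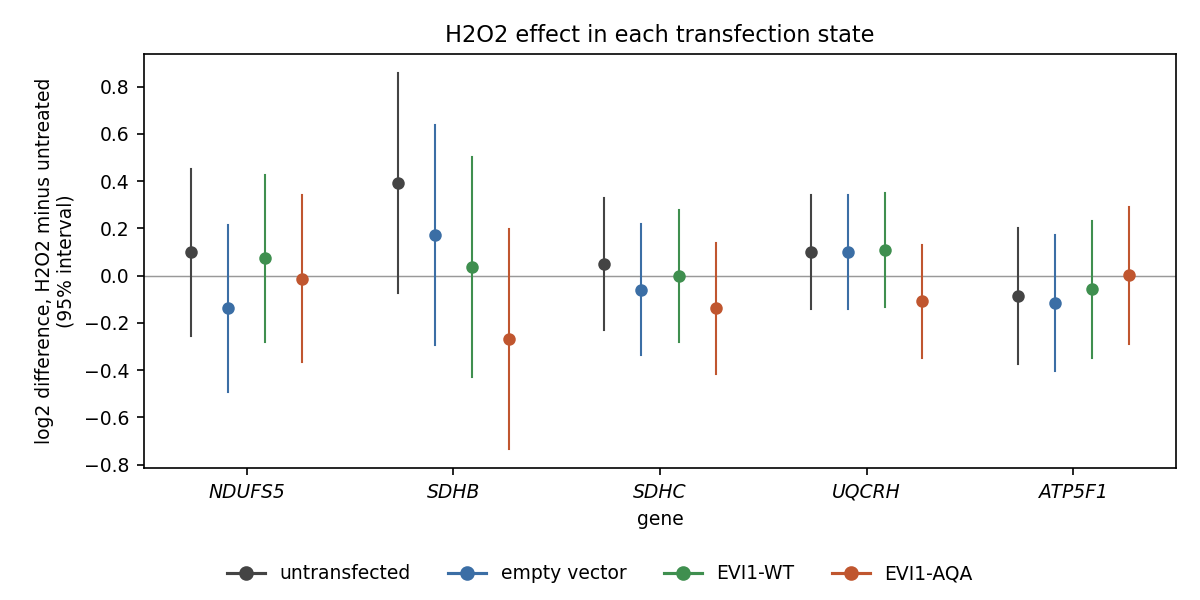
Log2 difference between H2O2 and untreated cells with its 95% interval for the 5 genes in each transfection state. Every interval spans 0, and SDHB has the widest span of estimates, from 0.39 in untransfected to -0.27 in EVI1-AQA cells.

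The other respiratory genes on chromosomes 1 and X placed these values in context. The 9 reported here all had a row, and in limma 0 of 9 were higher and 0 lower with H2O2, against 8.9% and 7.63% of all rows, while 3 of 9 genes and 31.1% of all rows had an unadjusted p under 0.05. In transfected cells 2 of 9 were higher and 0 lower, against 10.9% and 10.5% of all rows. In EVI1-AQA cells the H2O2 difference was above 0 in all 9 (median 0.22) and in 1 of the 5 respiratory genes described above (median -0.11), compared with 51.7% of all rows, and none of these 14 passed. EVI1-AQA against EVI1-WT after H2O2, which shares the exposed EVI1-AQA libraries, gave 9 of 9 (median 0.21) and 1 of 5 (median -0.14), compared with 51.7% of rows, and 8 of 9 and 1 of 5 without the 3 libraries.

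COX7B, a small subunit of complex IV, was higher in transfected cells by 0.38 (SE 0.10, adjusted p = 0.0129, with the block 0.0254), at 0.0070, 0.63 and 0.51 in the batches, the same near absence of a difference in batch 1 as in NDUFS5. Its call was lost without the untransfected library with H2O2 of batch 2 (adjusted p = 0.0539). UQCRHL was higher by 0.35 (adjusted p = 0.0298, with the block 0.0507), and its correlation with UQCRH was 0.502 over 24 libraries. The call of UQCRHL was lost without any 1 of 5 untransfected libraries, all but the untreated one of batch 1 (adjusted p from 0.0513 to 0.123), and without the untreated one of batch 3 the difference was 0.22. The complex I subunits NDUFA1 and NDUFB11 gave 0.13 and 0.031, and ATPIF1, which inhibits ATP hydrolysis by complex V, gave 0.17 (adjusted p = 0.0847). The assembly factors ATPAF1 (complex V), COA6 and COA7 (complex IV) gave -0.13, 0.19 and -0.12, and HCCS, which attaches heme to cytochromes c, gave -0.22. With H2O2 the nearest of the 9 to the threshold were COA7 at 0.16 (adjusted p = 0.0578, 11 of 12 pairs higher) and ATPAF1 at -0.14 (0.0804, 11 of 12 pairs lower). COA7 passed the exact sign-flip test over pairs (adjusted p = 0.0410), which treats pairs of the same batch as independent. In limma COA7 passed without any 1 of 5 libraries (adjusted p from 0.0378 to 0.0495), and COA6, at 0.27 (adjusted p = 0.102), and ATPAF1 each without any 1 of 2 libraries (0.0352 and 0.0396 for COA6, 0.0275 and 0.0489 for ATPAF1). Of the 13 mitochondrially encoded subunits 0 had a row. Of 69 further subunits, 15 had a row under their name on chromosomes 2 to 22, where labels are doubtful, and 2 were higher and 5 lower in transfected cells, against 10.9% and 10.5% of all rows, with a median of -0.15 against 0.0071. With H2O2, 1 was higher and 1 lower, against 8.9% and 7.63% of all rows.

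The 5 genes did not move as a unit across libraries, as ATP5F1 stood apart. Pairs among the other 4 had Pearson correlations from 0.423 to 0.835. Over the 24 libraries, which share batches and centring, NDUFS5 and UQCRH had a Pearson correlation of 0.835 (Spearman 0.716), and of 0.666 without the 2 libraries farthest from the median of NDUFS5. Within batches it was 0.640, 0.916 and 0.825, and after removing group means 0.941. SDHB and UQCRH had 0.631 (Spearman 0.790), 0.739 without the 2 farthest libraries and 0.372 after removing group means. The complex II partners SDHB and SDHC had 0.639, falling to 0.398 without the 2 farthest libraries and to 0.489 after removing group means. In the batches they had 0.371, 0.0046 and 0.833, highest in batch 3. ATP5F1 had correlations from -0.164 to 0.184 with the other 4. Within single batches these ran from -0.519, with UQCRH in batch 2, to 0.686, with SDHC in batch 3. These are descriptions over libraries and not tests.

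**Figure D5:**
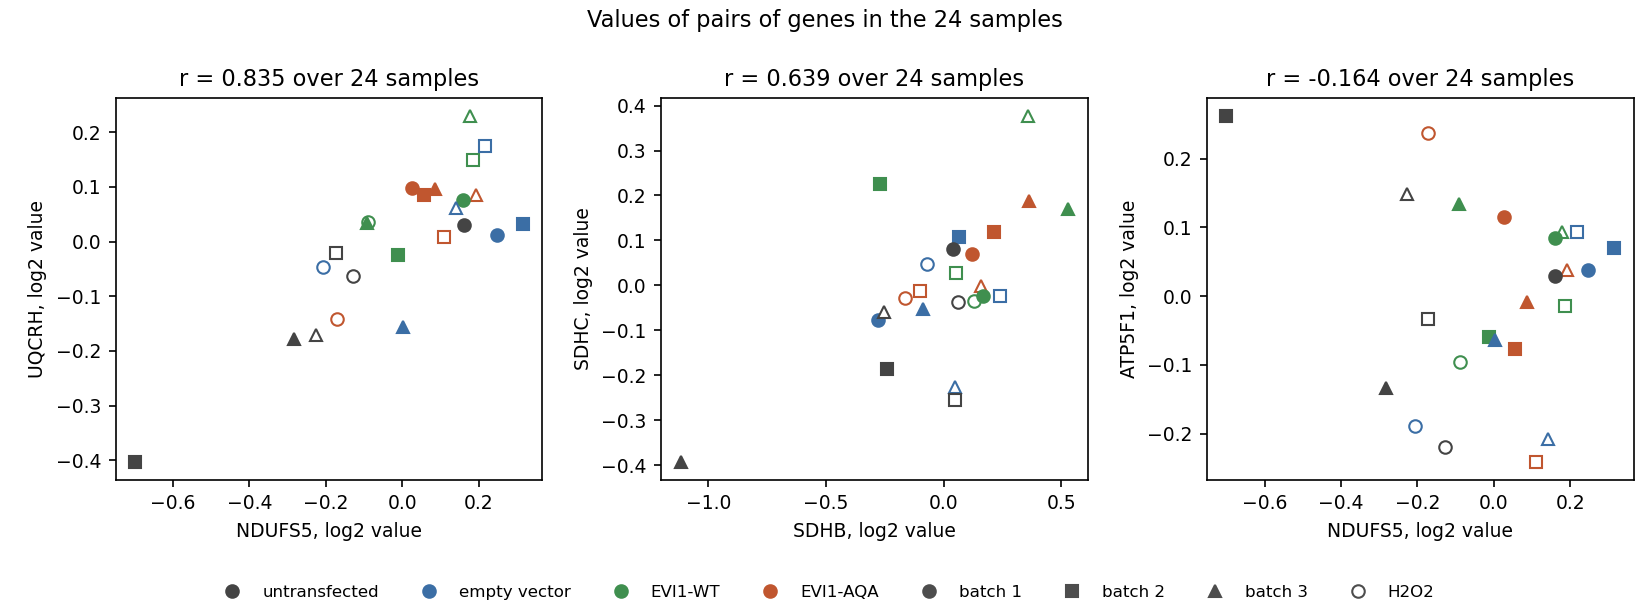
Log2 values of NDUFS5 against UQCRH, SDHB against SDHC and NDUFS5 against ATP5F1 in the 24 libraries, coloured by transfection state, with symbols for batches and open symbols for H2O2. The first pair lies along a line (r = 0.835), the second includes a library far to the lower left (r = 0.639), and the third has no trend (r = -0.164).

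Among the other 1540 rows labelled with a gene on chromosome 1 or X, those most like NDUFS5 over the 24 libraries were DPM3, a subunit of dolichol-phosphate mannose synthase (r = 0.869), and UQCRH. Those most like SDHB were CDC42, a GTPase of actin organisation and cell polarity (0.863), and RPS27, a ribosomal protein (0.845). SDHC was nearest to TMSB15A, an actin-binding thymosin (0.810), and ARF1, a GTPase of vesicle transport (0.807). UQCRH was nearest to NDUFS5 and to NSDHL, an enzyme of cholesterol synthesis (0.831). ATP5F1 had weaker likenesses, to CNIH4 (0.760) and WLS (0.660), both proteins of the secretory pathway. Thus only NDUFS5 and UQCRH had another gene of the 5 among their nearest 2.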

How the data were processed

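The authors sequenced 3′ ends of polyadenylated RNA from 24 HEK293 samples, mapped reads to GRCh38 and normalised FPKM values in Qlucore Omics Explorer. Aligner settings are not given in the sources used here. The deposited table holds log2 values (the log base was inferred) of 11579 rows with a mean of 0 in each batch of 8 samples, and no counts.

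Samples were grouped by their labels. A limma model (version 3.58.1, R 4.3.3) of the 8 groups used all samples and no block, and an alternative had the replicate number as a block. Because the values are centred within batches, the fit without the block counts 16 residual degrees of freedom where 14 remain. Its SEs and intervals are therefore somewhat too narrow and its p-values somewhat too small. The labels call this number the batch, which pairs the samples. Residuals of samples with the same number correlated at -0.140 on average and those with different numbers at 0.0702. The centring within batches and the removal of group means fix both values, so they do not tell whether samples are paired. A row was called at a Benjamini-Hochberg adjusted p under 0.05 over all rows, in two-sided tests. Fits were tested on simulated data.

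Genes named are the members, the listed respiratory genes of chromosomes 1 and X, for each member the 2 most correlated rows, and the row labelled CACNB3. One listed gene is not reported here. Members and lists were chosen with earlier results of these data known. Gene models came from GENCODE v44, in which 10892 rows were found, and promoters from RefSeq. Promoters of NDUFS5 and SDHC are not printed. Figures used Python 3.11.15 with pandas 2.3.3 and matplotlib 3.10.9. The alternatives were the block, centring on sample medians, quantile normalization, no moderation, leaving out each replicate or 3 H2O2 libraries, adjustment over chromosomes 1 and X alone and a sign-flip test. Leaving out each library in turn was chosen after seeing the data.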

Additional observations from a re-analysis of the deposited data

Results flagged for a closer look

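The H2O2 effect on SDHB went opposite ways in pairs of transfection states. It was 0.024, 0.29 and 0.87 in the 3 batches of untransfected cells and -0.29, -0.31 and -0.21 in those of EVI1-AQA cells, a difference between means of 0.66 (SE 0.32, limma unadjusted p = 0.0499, adjusted p = 0.307 and 0.407 with the replicate block). It was 0.21, 0.17 and 0.14 with empty vector, a difference from EVI1-AQA of 0.44 (SE 0.32, adjusted p = 0.566). Without the 3 H2O2 libraries that lay opposite to their labels in the CACNB3 row, the means were 0.090 with empty vector and -0.20 with EVI1-AQA. Neither difference passed the test, which called 182 rows for untransfected against EVI1-AQA cells and 47 for empty vector against EVI1-AQA cells. These pairs were picked for their opposite effects and tested on the same values, so their p-values cannot be taken at face value. The limma unadjusted p of 0.0499 was the smallest among all members and all pairs of states. The 0.87 of untransfected cells rests on the untreated library of batch 3 at -1.12, the lowest value of SDHB.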

How the results depend on the processing

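The number of the 5 genes called in the transfection comparison depended on the processing. It was 1 as reported, 0 with the replicate block, 0 after quantile normalization, 2 without moderation (NDUFS5 and UQCRH), and between 0 and 4 when a replicate was left out, with 4 without replicate 1 and 0 without replicate 2 or 3. Leaving out single libraries gave 0 to 4, with 4 without the untreated untransfected library of batch 1, 2 without EVI1-WT untreated of batch 2 or EVI1-AQA with H2O2 of batch 1, and 0 without any of the other 5 untransfected libraries. In the other comparisons the count of called members was 0 under every alternative. Among the genes named, the replicate block ended the calls of NDUFS5 and UQCRHL in the transfection comparison and changed no other call. H2O2 calls were added for COA7 by the sign-flip test (adjusted p = 0.0410), quantile normalization (0.0456) and no moderation (0.0192), and for ATPAF1 by no moderation (0.0282). Transfection calls were added for ATPIF1 by no moderation (0.0478) and for NDUFA1 without replicate 1 (0.0313). COX7B and UQCRHL lost their transfection calls without replicate 2 (adjusted p = 0.301 and 0.174) or 3 (0.120 and 0.366), and UQCRHL after quantile normalization (0.0672). The cause was not tested.

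Counts of rows called over the alternatives ran from 581 to 2226 for H2O2 averaged over states (1914 as reported, 1420 with the block, 1051 by the sign-flip test) and from 310 to 2483 for transfection (2473 as reported, 1864 with the block). For H2O2 in single states they ran from 0 to 49 in untransfected (45 as reported), 0 to 543 in empty vector (232), 0 to 145 in EVI1-WT (55) and 4 to 325 in EVI1-AQA cells (234). Over the 8 groups they ran from 12 to 2132 (2136), for the difference of the H2O2 effect from 0 to 46 (30), for empty vector against untransfected cells from 0 to 162 untreated (17) and 0 to 9 with H2O2 (0). For EVI1-AQA against empty vector they ran from 0 to 57 untreated (10) and 0 to 3 with H2O2 (2), for EVI1-AQA against EVI1-WT with H2O2 from 0 to 24 (2), and for EVI1-WT against empty vector from 0 to 1 untreated (0) and 0 to 4 with H2O2 (0). Depth is unknown, and 3 libraries a group limit the precision.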
